A study of Mus musculus with 9 samples.

Results

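The endoplasmic reticulum (ER) folding genes and the genes of the unfolded protein response were followed as a list of 39 named genes, found by symbol among the 55401 genes of a TPM table. They comprised 18 folding enzymes and chaperones, 10 genes of ER-associated degradation, 5 genes of stress sensing (the sensors and Xbp1) and 6 genes of the translocon and related functions. Of the 39 genes, 38 had a mean TPM of at least 1 and were tested. Derl3, a channel protein of ER-associated degradation, reached at most 0.993 TPM in any column and was listed at 0 in every LPS + Ska column.

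The data came from RAW264.7, a macrophage line from a male mouse with tumors induced by Abelson murine leukemia virus, labelled as wild type. Cells of 1 line were divided into 3 groups, each given 24 h of treatment according to the labels. The results section of the study gives the same time, whereas its methods section names a longer time. The DMSO group received the solvent alone. The LPS group received DMSO and lipopolysaccharide, a bacterial wall component that activates macrophages, and the LPS + Ska group received lipopolysaccharide and skatole, an indole compound. Each group held 3 columns, numbered 5, 6 and 7, and there was no group with skatole alone.

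Secreted and membrane proteins enter the ER through the Sec61 channel and are folded there by chaperones, oxidoreductases and lectins. Proteins that fail to fold are drawn back to the cytosol and degraded. When unfolded proteins accumulate, the sensors Ire1 (gene Ern1), Perk (gene Eif2ak3) and Atf6 signal to the nucleus, partly through the transcription factor Xbp1, and genes for folding and degradation are induced. Activated macrophages secrete cytokines in quantity and are known for their use of this system.

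A promoter element that the choice of genes did not use is shown first, because many ER chaperone genes are known to be induced through it. The ER stress response element (ERSE) is the letters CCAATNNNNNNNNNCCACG, known as background to be read by Atf6 and by Xbp1 beside the CCAAT-binding factor. It was first described in promoters of chaperone genes such as Hspa5, so its share in this list is a description and not independent of what the genes are known for. RefSeq promoter windows (GRCm38.p6, 250 bases before to 50 bases after each annotated start) were found for 33 of the 39 genes. An exact ERSE on either strand stood in 9 of these 33 genes (27.3%), compared with 37 of all 27025 genes with a window (0.137%). The 9 genes were Hspa5, Hsp90b1, Calr, Canx, Pdia6, Dnajc3, Creld2, Derl3 and Syvn1, with 2 matches in Hsp90b1. The related element ERSE-II (ATTGG, 1 base, CCACG) was found in Herpud1 and Dnajb11 (6.06% against 0.0444%). The element TGACGTGG, called UPRE, was found in Txndc5 alone (3.03% against 0.714%). The letters CCACG, which occur in both forms of ERSE and on the opposite strand within UPRE, were found in 81.8% of the 33 genes and in 35.5% of all genes. Of 63 related ER genes with a window, from the second list below, 65.1% held CCACG and 3.17% held UPRE. In the same 63 genes ERSE and ERSE-II each stood in 1.59%. No window was found for Manf, Hyou1, Erp29, Derl1, Atf6 and Sec61a1. The stretches of the 4 abundant chaperone genes with an ERSE, and of Herpud1, are printed 5′ to 3′ along each gene's strand, upstream of its annotated start, with the element in capitals and 20 bases on either side.
Hspa5 (chr2:34772005-34772063, plus strand): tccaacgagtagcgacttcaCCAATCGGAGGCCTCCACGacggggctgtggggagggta
Hsp90b1, farther match (chr10:86705618-86705676, minus strand): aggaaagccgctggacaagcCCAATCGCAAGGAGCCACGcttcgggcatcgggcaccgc
Hsp90b1, nearer match (chr10:86705513-86705571, minus strand, element on the opposite strand): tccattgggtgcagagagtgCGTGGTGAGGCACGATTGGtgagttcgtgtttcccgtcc
Calr (chr8:84847055-84847113, minus strand, element on the opposite strand): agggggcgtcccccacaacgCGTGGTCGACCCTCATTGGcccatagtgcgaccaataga
Canx (chr11:50325780-50325838, minus strand): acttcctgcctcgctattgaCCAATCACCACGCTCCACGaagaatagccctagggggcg
Herpud1, ERSE-II (chr8:94386357-94386407, plus strand): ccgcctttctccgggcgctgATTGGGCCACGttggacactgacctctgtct

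The element began 65 bases before the start of Hspa5 and 107 and 212 bases before that of Hsp90b1. A match describes the letters in a window and does not show that a factor bound there.

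Several properties of the table apply to every value below. TPM is the share of a transcript in its sample, corrected for length, so it keeps no record of sequencing depth and a change is relative to all other transcripts. The columns summed to between 999895 and 1000145, and 12498 to 13012 genes per column reached a TPM of 1. Replicate 5 of LPS was the mean of the other LPS columns in 17950 of 17950 genes with both above 0, and the same held for LPS + Ska in 17658 of 17658 (tolerance 1e-05 TPM). In DMSO a column equalled the mean of the other columns in at most 0.0614% of genes. The LPS and LPS + Ska groups therefore held at most 2 independent values per gene, and each SD below is over 3 columns. No source states that the columns came from separate cultures, so the p-values measure at most the spread between these samples. The fit also counts the tied column as a separate sample, so its SEs and p-values may be too small. Overlap between groups is stated below for the columns as deposited. The recovered values, described under processing, lie closer together within a group. All 8 macrophage markers had a mean TPM of at least 1. Their summed TPM ran from 12397 to 13368 with DMSO, from 7341 to 7739 with LPS and from 13668 to 13927 with LPS + Ska. This order came mostly from Lyz2 (8866 to 9673, 4219 to 4627 and 9915 to 10207 TPM), and the markers did not move together. Itgam was also lowest with LPS and highest with LPS + Ska. Csf1r, Cd68 and Spi1 were below DMSO in both LPS-treated groups, and Cd14 was above it in both. The LPS + Ska columns of Adgre1 and Ptprc overlapped both other groups. The part of these differences in the results was not tested. Of the T or NK cell markers 4 of 4 were listed at 0, fibroblast or chondrocyte markers summed to at most 0.462 TPM and epithelial or endothelial markers to at most 0.638 TPM. Of the B or plasma cell markers, Sdc1, which macrophages can also express, had a mean TPM of at least 1, and Ms4a1 was listed at 0. As these are bulk samples, fewer cells of a kind and less RNA per cell cannot be told apart.

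The list as a whole was abundant, and single genes changed in both directions. Mean TPM over the 9 columns ran from 6.05 (Ern1) to 1666 (Hspa5) among the genes tested, which placed Hspa5 at rank 65 and Hsp90b1 at rank 80 of 12819. The 39 genes together summed to 9456 ± 608 TPM with DMSO, 10264 ± 180 TPM with LPS and, with LPS + Ska, to 10353 ± 11.2 TPM (SD over n = 3 columns). Sums of the folding group were 7564 ± 511, 8326 ± 169 and 8370 ± 3.13 TPM, in the same order of groups. Genes of ER-associated degradation summed to 650 ± 42.4, 706 ± 13.3 and 679 ± 6.08 TPM. The sensing group stepped downward from DMSO to LPS to LPS + Ska, at 505 ± 21.2, 411 ± 4.21 and 351 ± 6.83 TPM. The translocon group showed the opposite order, at 737 ± 38.9, 822 ± 1.23 and 953 ± 21 TPM. These sums are descriptions without a test. They are weighted toward the abundant genes, such as Hspa5 and Hsp90b1 in the folding group and Xbp1 and Atf6b in the sensing group. Single genes could differ from the sum of their group.

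To ask how LPS altered the list, LPS was compared with DMSO. With limma on log2(TPM + 1), a gene was called at a Benjamini-Hochberg adjusted p below 0.05 over all 12819 genes tested and a fold change above 1.5 or below 0.67. In the list 5 of 38 genes rose (Hsp90b1, Dnajb9, Erp44, Herpud1 and Sec61g), against 12.7% of all genes tested. A further 4 of 38 fell (Sdf2l1, Erp29, Os9 and Atf6b), against 20% of all genes tested. The median log2 fold change of the 38 genes was 0.036, beside −0.067 for all genes, and the range was −1.17 to 0.93. With the adjusted p alone, 14 were higher and 13 lower, against 26.2% and 34.2% of all genes. Against these shares the count of 5 is near the background and the count of 4 is below it. With median-ratio scaling 7 rose and 4 fell, Hspa5 and Serp1 being the additional genes. Over all 12799 genes tested with that scaling 2006 rose and 2091 fell, beside 1630 and 2559 of 12819 as deposited.

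**Figure D1:**
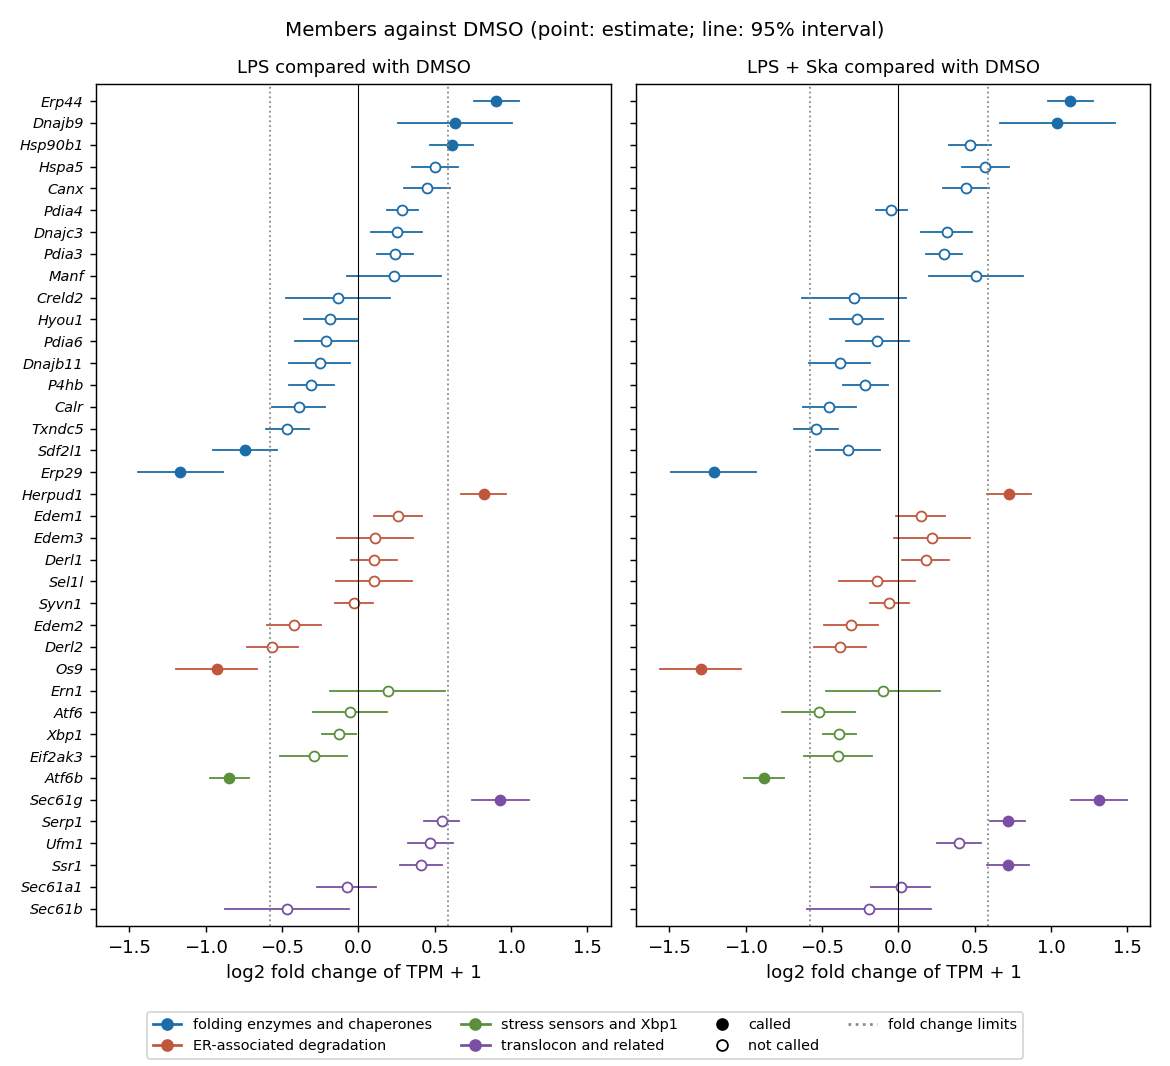
Log2 fold change of TPM + 1 (horizontal axis) of the 38 genes tested, for LPS compared with DMSO (left) and LPS + Ska compared with DMSO (right), both against the same DMSO columns. Points are limma estimates, lines their 95% intervals, colours the roles, filled points the called genes and dotted lines the fold change limits. Erp44, Dnajb9, Herpud1 and Sec61g are called higher and Erp29, Os9 and Atf6b called lower in both panels. The intervals count the tied LPS and LPS + Ska columns as independent.

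The abundant chaperones come first, with values in the order of replicates 5, 6 and 7, as in all that follow. Hspa5 (ENSMUSG00000026864), the Hsp70 chaperone BiP that also holds the stress sensors inactive, stood at 1165, 1280.2 and 1408 TPM with DMSO, 1813, 1773 and 1853 TPM with LPS, and at 1901, 1959 and 1844 TPM with LPS + Ska. All 6 columns with LPS lay above the DMSO columns, and the LPS and LPS + Ska columns overlapped. Its log2 fold change against DMSO was 0.50 with LPS and 0.57 with LPS + Ska, both past the adjusted p and short of the fold change limit of 0.585 on the log2 scale. With median-ratio scaling of the columns both passed the limit, at 0.59 and 0.76.

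Hsp90b1 (ENSMUSG00000020048), the ER form of Hsp90 that folds Toll-like receptors and integrins, stood at 986, 1035 and 1122 TPM with DMSO, 1599, 1604 and 1594 TPM with LPS, and at 1451, 1538 and 1364 TPM with LPS + Ska. Again the DMSO columns were the lowest, and here the LPS columns were above those of LPS + Ska. In LPS compared with DMSO it rose, with a log2 fold change of 0.61 (SE 0.062, adjusted p = 3.19e-05) by limma. Without DMSO replicate 5 the value was 0.57, below the limit.

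The lectin chaperones differed from DMSO in opposite directions. Calr (ENSMUSG00000003814), the soluble lectin calreticulin, stood at 1054, 1194 and 1304 TPM with DMSO, 899.6, 879 and 919.8 TPM with LPS, and at 863, 815 and 910.4 TPM with LPS + Ska. Canx (ENSMUSG00000020368), its membrane-bound counterpart calnexin, stood at 435, 469 and 502 TPM with DMSO, 639, 636 and 641 TPM with LPS, and at 638, 685 and 590.3 TPM with LPS + Ska. P4hb (ENSMUSG00000025130), the protein disulfide isomerase that forms and shuffles disulfide bonds, stood at 651, 752 and 728 TPM with DMSO, 573, 541 and 605 TPM with LPS, and at 610.0, 596 and 624 TPM with LPS + Ska. Canx was higher and Calr and P4hb were lower in every LPS and LPS + Ska column than in any DMSO column, all within the fold change limits (LPS compared with DMSO, 0.45, −0.39 and −0.31 on the log2 scale).

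Among the co-chaperones and oxidoreductases, the called genes were less abundant. Dnajb9 (ENSMUSG00000014905), an Hspa5 co-chaperone that restrains Ire1, stood at 20.8, 27.5 and 36.3 TPM with DMSO, 43.4, 38.6 and 48.2 TPM with LPS, and at 57.7, 56.3 and 59.1 TPM with LPS + Ska. The groups did not overlap and LPS + Ska was highest, but the DMSO columns were far apart. It rose in LPS compared with DMSO, with a log2 fold change of 0.63 (SE 0.17, adjusted p = 0.00885) by limma. The value was below the limit without DMSO replicate 5 (0.44) or LPS replicate 7 (0.56).

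Erp44 (ENSMUSG00000028343), which retains unassembled secretory proteins and the oxidase Ero1 in the early secretory pathway, stood at 80.3, 82.2 and 82.8 TPM with DMSO, 154, 156 and 152 TPM with LPS, and at 180.1, 196 and 164 TPM with LPS + Ska. Every column with LPS was well above DMSO, and LPS + Ska lay above LPS. Its log2 fold change in LPS compared with DMSO was 0.90 (SE 0.065, adjusted p = 3.83e-06) by limma. Erp29 (ENSMUSG00000029616), a disulfide isomerase relative that acts as an escort of secretory proteins, stood at 124, 132 and 133 TPM with DMSO, 57.5, 51.0 and 63.9 TPM with LPS, and at 56.1, 46.2 and 66.0 TPM with LPS + Ska. It was the gene of the list with the lowest value in this comparison, at −1.17 (SE 0.12, adjusted p = 4.11e-05) on the log2 scale, and its LPS and LPS + Ska columns overlapped.

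Sdf2l1 (ENSMUSG00000022769), a partner of the Hspa5 chaperone cycle, stood at 243, 259.8 and 275 TPM with DMSO, 155, 141 and 169 TPM with LPS, and at 207, 184 and 229.8 TPM with LPS + Ska. LPS was lowest, and LPS + Ska lay between the other groups without overlap. The log2 fold change in LPS compared with DMSO was −0.74 (SE 0.094, adjusted p = 0.000123) by limma. The other 9 genes of the folding group were not called in any comparison. They ran in LPS compared with DMSO from −0.47 (Txndc5, a disulfide isomerase relative) to 0.29 (Pdia4, another such enzyme) on the log2 scale.

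**Figure D2:**
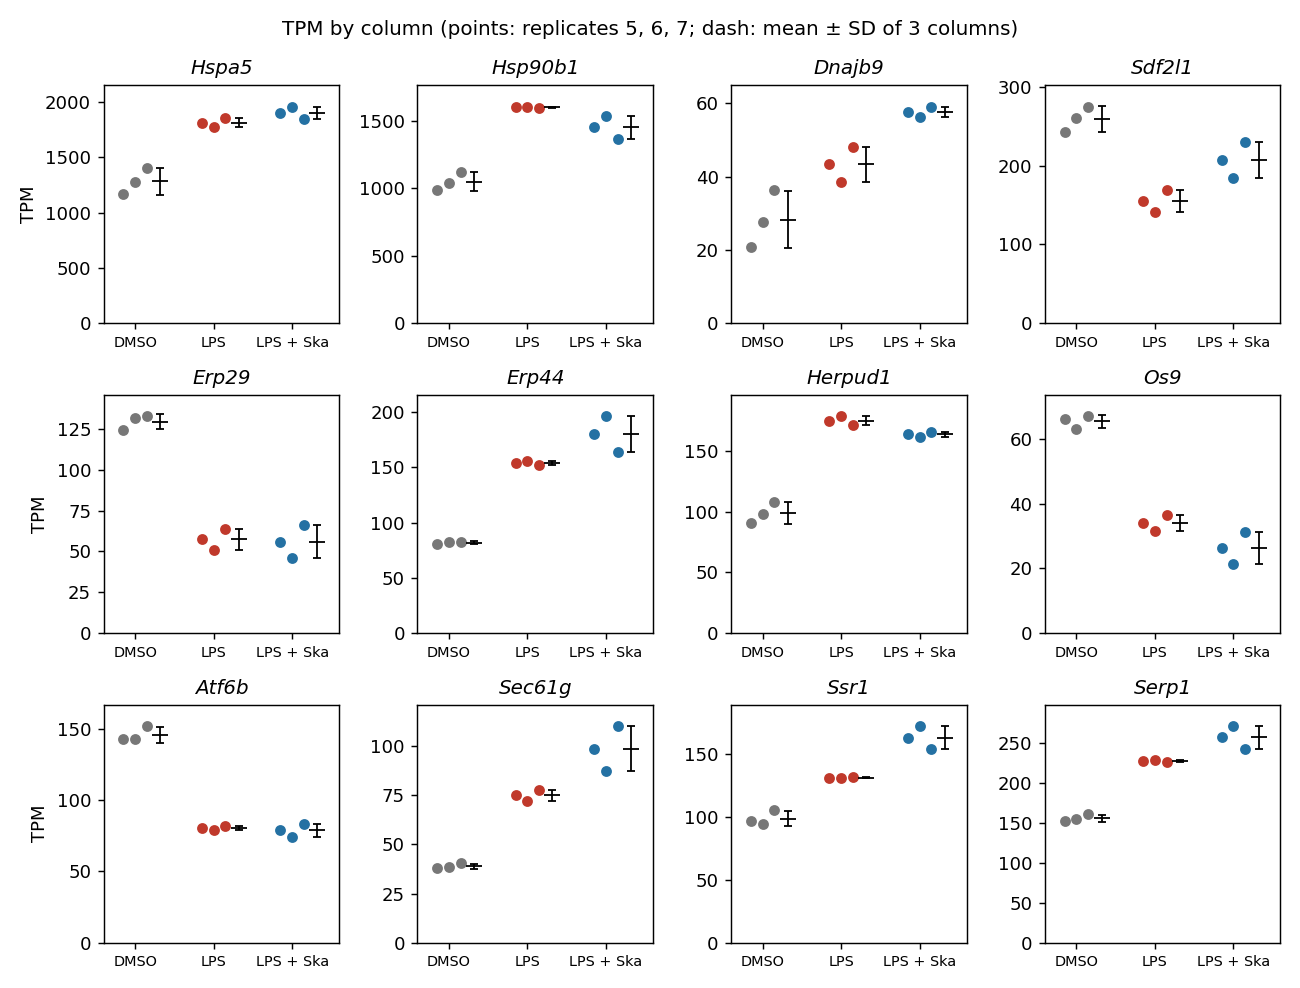
TPM (vertical axis, from 0) of Hspa5 and of the 11 genes called in at least 1 comparison, by group. Points are the columns numbered 5, 6 and 7 from left to right, and the dash with its bar is the mean ± SD over 3 columns, of which at most 2 are independent in LPS and LPS + Ska. Sec61g, Ssr1, Serp1 and Erp44 are lowest with DMSO and highest with LPS + Ska, while Os9 is highest with DMSO and lowest with LPS + Ska.

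In ER-associated degradation, 1 of the 9 genes tested rose with LPS and 1 fell. Herpud1 (ENSMUSG00000031770), a membrane protein that organises the degradation complex, stood at 90.7, 98.4 and 108 TPM with DMSO, 175, 179 and 172 TPM with LPS, and at 164, 162 and 166 TPM with LPS + Ska. DMSO was lowest by far and LPS slightly above LPS + Ska. Its log2 fold change in LPS compared with DMSO was 0.82 (SE 0.065, adjusted p = 6.91e-06) by limma. Os9 (ENSMUSG00000040462), a lectin that delivers misfolded glycoproteins to the ligase complex, stood at 66.1, 63.3 and 67.1 TPM with DMSO, 34.0, 31.5 and 36.5 TPM with LPS, and at 26.4, 21.5 and 31.3 TPM with LPS + Ska. It fell with LPS, with a log2 fold change of −0.93 (SE 0.12, adjusted p = 0.000132) by limma, and LPS + Ska lay lower still. The ligase Syvn1 (Hrd1) and its partner Sel1l, the channel proteins Derl1 and Derl2, and the mannosidase-like Edem1, Edem2 and Edem3 were not called. Derl2 came nearest, at −0.56 on the log2 scale, and it passed the limit without DMSO replicate 6 (−0.64) or LPS replicate 7 (−0.58).

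Of the 5 genes of stress sensing, Atf6b alone was called. Atf6b (ENSMUSG00000015461), a relative of Atf6, stood at 142, 143 and 152 TPM with DMSO, 80.6, 79.1 and 82.0 TPM with LPS, and at 78.7, 74.3 and 83.1 TPM with LPS + Ska. The DMSO columns were clearly apart from the others, which overlapped. It fell in LPS compared with DMSO, with a log2 fold change of −0.84 (SE 0.057, adjusted p = 2.74e-06) by limma.

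The other sensors were expressed at lower levels. Atf6 (ENSMUSG00000026663), which is cut in the Golgi to release a transcription factor, stood at 40.1, 42.8 and 50.9 TPM with DMSO, 42.7, 39.8 and 45.7 TPM with LPS, and at 30.8, 34.0 and 27.5 TPM with LPS + Ska. Ern1 (ENSMUSG00000020715), the kinase and nuclease that splices Xbp1 mRNA, stood at 4.27, 6.53 and 7.05 TPM with DMSO, 6.80, 6.88 and 6.73 TPM with LPS, and at 5.40, 6.20 and 4.60 TPM with LPS + Ska. Eif2ak3 (ENSMUSG00000031668), the kinase that slows translation through eIF2 alpha, stood at 14.7, 16.7 and 17.7 TPM with DMSO, 13.2, 12.5 and 13.8 TPM with LPS, and at 12.2, 13.3 and 11.1 TPM with LPS + Ska. Atf6 was lowest with LPS + Ska, with DMSO and LPS overlapping. For Ern1 the DMSO columns spanned those of both other groups, and LPS lay above LPS + Ska. Eif2ak3 was highest with DMSO, and its LPS and LPS + Ska columns overlapped.

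Xbp1 (ENSMUSG00000020484), the transcription factor made from the mRNA that Ire1 splices, stood at 283, 295 and 299 TPM with DMSO, 268, 277 and 258 TPM with LPS, and at 224, 229.8 and 218 TPM with LPS + Ska. The groups stepped downward in this order without overlap. The step from DMSO to LPS was small, at −0.13 on the log2 scale (limma adjusted p = 0.0455). It passed the adjusted p under 8 of 18 other settings, and with median-ratio scaling it was −0.037 (limma adjusted p = 0.487). Values per gene do not separate spliced from unspliced Xbp1, so the active form was not measured here.

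In the translocon group, Sec61g (ENSMUSG00000078974), the small gamma subunit of the channel, stood at 38.0, 38.2 and 40.3 TPM with DMSO, 74.8, 72.1 and 77.6 TPM with LPS, and at 98.4, 87.0 and 109.8 TPM with LPS + Ska. The groups stepped upward in this order without overlap. With LPS its log2 fold change against DMSO was 0.93 (SE 0.082, adjusted p = 1.41e-05) by limma. The alpha subunit Sec61a1 and the beta subunit Sec61b were at −0.08 and −0.47 on the log2 scale, neither of them called, and the value of Sec61a1 changed sign with median-ratio scaling.

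Ssr1 (ENSMUSG00000021427), a subunit of the translocon-associated complex, stood at 96.7, 94.2 and 106 TPM with DMSO, 131, 131 and 132 TPM with LPS, and at 163, 172 and 154 TPM with LPS + Ska. Serp1 (ENSMUSG00000027808), a small protein tied to the channel that protects membrane proteins during stress, stood at 153, 155 and 161 TPM with DMSO, 228, 229.7 and 227 TPM with LPS, and at 258, 272 and 244 TPM with LPS + Ska. Both showed the same order of groups as Sec61g. Ufm1, the ubiquitin-like modifier attached to ribosomes at the ER, was not called in any comparison (0.47 on the log2 scale with LPS).

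The spread within DMSO bears on these counts. DMSO replicate 5 was the lowest DMSO column in 27 of the 38 genes (71.1%, against 44.8% of all genes tested), and DMSO replicate 7 was the highest in 31 (81.6%, against 45.2%). Without replicate 5 of DMSO, 3 genes rose and 4 fell with LPS, and without replicate 7, 5 rose and 4 fell. With the 2 recovered values per gene in place of the tied columns, 5 rose and 4 fell. Over all genes tested, 1527 rose and 2590 fell without replicate 5 of DMSO, and 1732 and 2504 without replicate 7. The recovered values gave 1610 and 2555 over all genes.

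LPS + Ska was next compared with LPS, the comparison that asks what skatole changed in activated cells. No gene of the list was called by limma in either direction, while 3.35% of all genes tested were called higher and 6.14% lower. The count was also 0 with the recovered values and with median-ratio scaling. Over all genes, 359 were called higher and 632 lower with the recovered values, and 598 and 539 with median-ratio scaling. An unadjusted p below 0.05 was given to 12 of the 38 genes (31.6%), against 40.5% of all genes tested. The median log2 fold change was −0.017, beside −0.096 for all genes, and the values ran from −0.46 to 0.42.

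Intervals show what size of change the data could hold. For 31 of the 38 genes the 95% interval of the log2 fold change lay inside the fold change limits (−0.578 to 0.585). The intervals of Atf6, Dnajb9, Ern1, Manf, Os9, Sdf2l1 and Sec61b reached a limit, the highest upper bound being 0.78 (Dnajb9) and the lowest lower bound −0.70 (Atf6). For the chaperone Hspa5 the interval was −0.08 to 0.22, and for Canx it was −0.16 to 0.15.

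With the adjusted p alone, 5 genes were higher and 4 lower in LPS + Ska than in LPS, against 8.89% and 19.7% of all genes. These 9 genes were named after their values had been seen. The higher genes were Sdf2l1 (0.42), Sec61g (0.38), Ssr1 (0.31), Erp44 (0.22) and Serp1 (0.17), on the log2 scale. Of these, Erp44 and Serp1 did not pass with the recovered values, at a limma adjusted p of 0.0521 and 0.0894. Each of them failed under 8 of 18 other settings, with an adjusted p up to 0.104 and 0.124, and Serp1 failed under the replicate block. The count of higher genes was 3 without LPS + Ska replicate 5 or without any 1 of the LPS columns, and 8 with median-ratio scaling. With that scaling 28.9% of the 38 genes passed in either direction, against 27.4% of all genes. The lower genes were Atf6 (−0.46), Os9 (−0.37), Pdia4 (−0.33) and Xbp1 (−0.26). Os9 did not pass under 13 of 18 other settings, with a limma adjusted p up to 0.163 under median-ratio scaling. Atf6, Pdia4, Xbp1, Sdf2l1, Sec61g and Ssr1 passed under all 18, including median-ratio scaling, the recovered values and each column left out. Leaving out a column adds little in this comparison. An LPS or LPS + Ska column left out is still held in the others through the tie, and the DMSO columns do not enter the estimate.

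All 5 genes of stress sensing were below 0 in LPS + Ska compared with LPS (median −0.26), as were 62.9% of all genes tested. With median-ratio scaling Atf6b was above 0 and the other 4 stayed below (median −0.15), beside 50.2% of all genes. In the translocon group 5 of 6 were above 0 (median 0.22), and 6 of 6 with that scaling. The folding group had 9 above and 9 below (median 0.029), and 14 and 4 with that scaling. ER-associated degradation had 4 above and 5 below (median −0.030), and 6 and 3 with that scaling. These signs are a description of 3 tied columns per group and no test of the roles was made.

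**Figure D3:**
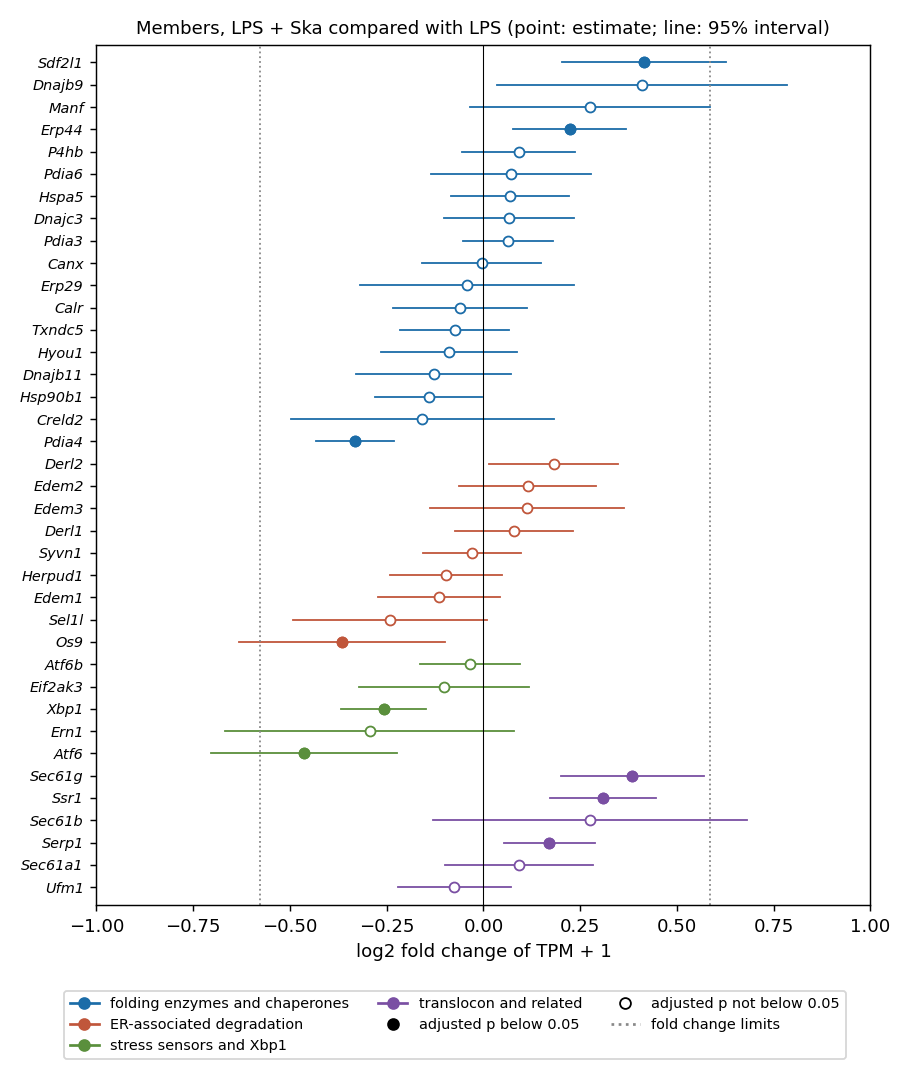
Log2 fold change of TPM + 1 (horizontal axis) of the 38 genes tested in LPS + Ska compared with LPS. Points are limma estimates, lines their 95% intervals, colours the roles, filled points an adjusted p below 0.05 and dotted lines the fold change limits. No point lies outside the limits, and 31 of 38 intervals lie inside them. The intervals count the tied columns as independent and may be too narrow.

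LPS + Ska was last compared with DMSO, which shares its DMSO columns with the first comparison, so the results are set side by side and not counted as separate support. In this comparison 6 of 38 genes rose (Dnajb9, Erp44, Herpud1, Sec61g, Ssr1 and Serp1), against 11.4% of all genes tested. The 3 genes that fell were Erp29, Os9 and Atf6b, against 25.3% of all genes. The median was −0.080, beside −0.175 for all genes, with a range of −1.29 to 1.31. With the adjusted p alone 14 were higher and 14 lower, against 22.7% and 40.6%, and with median-ratio scaling 19 were higher and 8 lower by the adjusted p. With that scaling 71.1% of the 38 genes passed in either direction, against 63.3% of all genes.

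The largest rise was in Sec61g, with a log2 fold change of 1.31 (SE 0.082, adjusted p = 1.54e-06) by limma, after 0.93 in LPS compared with DMSO. Erp44 followed at 1.13 (SE 0.065, adjusted p = 9.25e-07), after 0.90, and Dnajb9 at 1.04 (SE 0.17, adjusted p = 0.00046), after 0.63. Unlike the value with LPS, that of Dnajb9 kept its call without any single column, though the LPS + Ska columns are tied. Ssr1, at 0.72 (SE 0.061, adjusted p = 8.24e-06), and Serp1, at 0.72 (SE 0.052, adjusted p = 3.43e-06), passed the fold change limit here and not with LPS, where they were at 0.41 and 0.54. With median-ratio scaling Serp1 also passed it with LPS, at 0.64. Their difference between LPS + Ska and LPS is the smaller one given above. Herpud1 rose by 0.72 (SE 0.065, adjusted p = 1.14e-05). Translocon genes made up 3 of the 6 genes that rose.

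Os9 was the gene that fell most, with a log2 fold change of −1.29 (SE 0.12, adjusted p = 1.38e-05) by limma, after −0.93 in LPS compared with DMSO. Erp29 was at −1.21 (SE 0.12, adjusted p = 2.72e-05), after −1.17, and Atf6b at −0.88 (SE 0.057, adjusted p = 1.85e-06), after −0.84. Hsp90b1 and Sdf2l1, called with LPS, were not called here, at 0.47 and −0.33. Without DMSO replicate 5, 7 genes rose and 5 fell, as Manf, a secreted ER stress protein (0.64), Txndc5 (−0.60) and Atf6 (−0.59) then passed the limit. Over all genes 1407 rose and 3275 fell in that fit. With median-ratio scaling 10 genes rose and 3 fell, the additional genes being Hspa5 (0.76), Manf (0.70), Hsp90b1 (0.66) and Canx (0.64). Over all 12799 genes tested with that scaling 2222 rose and 2237 fell, beside 1457 and 3243 of 12819 as deposited.

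The scaling matters to directions near 0. Median-ratio scaling moved the median of all genes from −0.067 to 0.015 in LPS compared with DMSO, from −0.096 to −0.0017 in LPS + Ska compared with LPS and from −0.175 to −0.0016 in LPS + Ska compared with DMSO. The medians of the list became 0.13, 0.085 and 0.098. Relative to all genes the list stood 0.10, 0.079 and 0.095 higher as deposited and 0.11, 0.087 and 0.0997 higher after scaling. This offset depended on the filter: with no filter on low values (25181 genes) the differences were −0.028, −0.0064 and −0.083. Over all genes, the share of calls that were higher was 38.9%, 35.3% and 31% as deposited, and 49%, 52.6% and 49.8% after scaling.

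Genes with an ERSE lay on both sides of 0. Of the 9, 8 were tested, and in LPS compared with DMSO their values ran from −0.39 (Calr) to 0.61 (Hsp90b1). Hsp90b1 was the 1 gene called, as higher, against 12.7% of all genes called higher and 20% lower. In LPS + Ska compared with LPS the 8 lay between −0.16 and 0.071. None was called, against 3.35% and 6.14% of all genes. Against DMSO, LPS + Ska gave −0.45 to 0.57 with none called, against 11.4% and 25.3%. By the adjusted p alone, 4 of the 8 were higher and 1 lower in each comparison with DMSO. The shares of all genes were 26.2% and 34.2% with LPS and 22.7% and 40.6% with LPS + Ska. With median-ratio scaling Hspa5 (0.59) was also called higher with LPS, and Hspa5 (0.76), Hsp90b1 (0.66) and Canx (0.64) with LPS + Ska. That scaling called 2006 and 2222 of all 12799 genes higher in these comparisons. Counts this small were not tested against these shares. Herpud1, with ERSE-II, was called higher in both comparisons with DMSO. Dnajb11, the other gene with ERSE-II, was below 0 in both, at −0.25 with LPS and −0.38 with LPS + Ska, and was not called. Txndc5, with UPRE, was at −0.47 and −0.54 in the same comparisons and was not called.

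**Figure D4:**
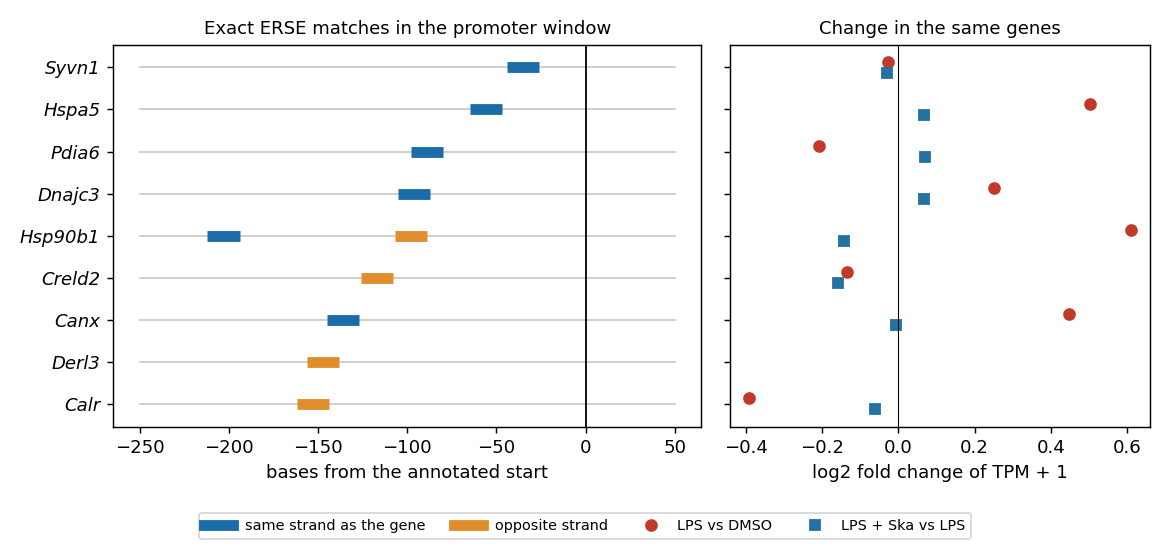
Left, position of exact ERSE matches in bases from the annotated start (0) in the 9 genes with a match, coloured by strand, with grey lines for the window from 250 bases before to 50 bases after the start. Right, log2 fold change of TPM + 1 of the same genes in LPS compared with DMSO (circles) and LPS + Ska compared with LPS (squares), without Derl3, which was not tested. The circles spread from −0.39 to 0.61 and the squares stay between −0.16 and 0.071.

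A second list of 80 other ER genes with related roles was followed by counts, and 79 were tested. In LPS compared with DMSO 12 rose and 6 fell, against 12.7% and 20% of all genes tested. The largest values were Trib3, a pseudokinase induced downstream of Perk, at 1.30 (SE 0.22, adjusted p = 0.000692), and Fkbp11, a secretory prolyl isomerase, at 1.20 (SE 0.079, adjusted p = 2.33e-06) by limma. At the other end were Ddrgk1, an adaptor of Ufm1 conjugation, at −1.20 (SE 0.31, adjusted p = 0.00782), and Fkbp2, another ER prolyl isomerase, at −0.99 (SE 0.24, adjusted p = 0.0053). In LPS + Ska compared with LPS none of the 79 was called by limma, with an unadjusted p below 0.05 in 28 and an adjusted p below 0.05 in 18, against 40.5% and 28.6% of all genes tested. With median-ratio scaling 3 were called higher, as were 598 of all 12799 genes tested with it. In LPS + Ska compared with DMSO 14 rose and 8 fell, against 11.4% and 25.3% of all genes tested. They were led by Fkbp11 at 1.69 (SE 0.079, adjusted p = 3.19e-07) and Hspa13, an Hsp70-like ER protein, at 1.14 (SE 0.10, adjusted p = 1.06e-05), and at the other end by Ddrgk1 at −1.50 (SE 0.31, adjusted p = 0.00204) and Aup1, a component of ER-associated degradation, at −0.98 (SE 0.095, adjusted p = 1.93e-05).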

How the data were processed

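RNA of 9 RAW264.7 samples (3 each for DMSO, LPS and LPS + Ska) was sequenced, and the authors deposited TPM per gene for 55401 Ensembl identifiers, of which 55141 matched a symbol. The submitters' processing notes name fastp 0.20.1, HISAT2 2.2.1, StringTie 2.0 and the build mm10. Annotation and settings are not given in the sources used here. As TPM carries no depth, that of the samples is unknown, and no count model was used.

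A linear model was fitted by limma 3.58.1 (R 4.3.3, eBayes with trend) to log2(TPM + 1), a scale that understates changes of low genes. All 9 columns entered it. Genes were kept at a mean TPM of 1 or more (12819 genes), and p-values were adjusted by Benjamini-Hochberg over these genes. The model script was first tested on simulated data with 9 independent columns, so that test does not cover the tied columns. Promoter letters were searched on both strands in Python 3.11.15, and figures were drawn with matplotlib 3.10.9.

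The 39 genes and all other lists were chosen with earlier results of these data known. Log2 fold changes with errors are printed for called genes, and TPM per column for these, the sensors, Xbp1 and 5 abundant chaperones. Of related ER genes at most 2 per direction are named.

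Replicate numbers were checked for pairing. Deviations of same-numbered columns correlated at 0.384, 0.151 and 0.128 between LPS and LPS + Ska and at −0.032 to 0.0801 between the other groups. Because both LPS-treated groups have columns tied alike, the numbers were not taken to pair samples. Recovered values are replicate 5 plus and minus 0.5 times the difference between replicates 6 and 5. How the tie arose is not described in the sources, so the factor of 0.5 is an assumption. Other settings tried were a replicate block, leaving out each column, median-ratio scaling, rescaling without mitochondrial-genome and ribosomal protein genes, a filter at TPM 5 or none, a pseudocount of 0.1, eBayes without trend, fitting only the groups compared, and calling by adjusted p with no fold limit.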

Additional observations from a re-analysis of the deposited data

How the results depend on the processing

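The counts of called genes of the list, 5 higher and 4 lower in LPS compared with DMSO, 0 and 0 in LPS + Ska compared with LPS, and 6 and 3 in LPS + Ska compared with DMSO, were the same with a replicate block and with the recovered values. The adjusted p alone gave 14 and 13, 5 and 4, and 14 and 14. Median-ratio scaling gave 7 higher and 4 lower in LPS compared with DMSO and 10 higher and 3 lower in LPS + Ska compared with DMSO (19 and 8 by the adjusted p alone). Over all 12799 genes tested with it, the called counts were 2006 and 2091, and 2222 and 2237. With each column left out in turn, the counts ran from 3 to 5 higher and 4 to 5 lower in LPS compared with DMSO and from 6 to 7 higher and 3 to 5 lower in LPS + Ska compared with DMSO, and stayed at 0 in LPS + Ska compared with LPS. Leaving out DMSO replicate 5 gave the 3 higher with LPS and the 5 lower with LPS + Ska. The cause was not tested. Over all genes, leaving out a column gave 1527 to 1732 higher and 2450 to 2590 lower in LPS compared with DMSO. It gave 1357 to 1580 and 3152 to 3275 in LPS + Ska compared with DMSO. In LPS + Ska compared with LPS it gave 316 to 503 and 576 to 996. None of the 64 values of single genes with an adjusted p below 0.05 changed sign in 1216 repeats. These repeats say little about stability, because the 64 were picked by their adjusted p and many settings cannot move an estimate. The filters, eBayes without trend, the replicate block, fitting only the groups compared and calling by adjusted p alone leave it unchanged. So does leaving out a column of the group not compared. Leaving out 1 LPS or LPS + Ska column removes no independent value, because the tie keeps it in the columns that stay. Over all 114 values tested, 21 changed sign in at least 1 setting, 11 of them in LPS + Ska compared with LPS. Depth is unknown, each LPS-treated group has no more than 2 independent values a gene, and a relative unit cannot show a change shared by all transcripts.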
